A study of Mus musculus with 6 samples.

Results

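The mitochondrial chromosome of the mouse carries 37 annotated genes, and these were followed in bulk RNA-seq of the dorsal hippocampus. The members were all genes that GENCODE release M21 places on chromosome M of GRCm38 (mm10), 37 of the 55401 genes in the count files. This rule uses no measured value, but the members were chosen with earlier results of these data known. They comprise 13 protein-coding genes, 2 rRNA genes and 22 tRNA genes. The samples came from WT mice of 4 months, littermates of the Ts65Dn line, whose dorsal dentate gyrus had been injected bilaterally with 50 μg of antisense oligonucleotide (ASO) per hemisphere 3 days before the tissue was taken. A total of 3 samples received Control-ASO, a scrambled oligonucleotide, and 3 received Snhg11-ASO, which directs RNase H to the lncRNA Snhg11. The design therefore asks whether mitochondrial transcripts differ after the knockdown. All samples were injected, and no untreated sample was used here. The tissue was not sorted, so fewer cells of a type and less RNA per cell cannot be told apart.

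Mitochondrial DNA is transcribed in both directions into long precursors that run through many genes. The tRNAs lie between the longer genes, and their excision frees the rRNAs and mRNAs on either side. Most genes are read from the heavy strand, whereas the light strand gives mt-Nd6, several tRNAs and long stretches with no gene, most of which are degraded quickly by the mitochondrial degradosome. The mRNAs encode core subunits of the respiratory complexes I (the Nd genes), III (mt-Cytb), IV (the Co genes) and V (the Atp genes), and the rRNAs build the mitochondrial ribosome. Of the 37 genes, 28 are on the plus strand of the reference and belong to the heavy-strand transcript, and 9 are on the minus strand and belong to the light-strand transcript. The latter are mt-Nd6 and 8 of the 22 tRNA genes.

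The values are numbers of read pairs per gene, counted by strand. A pair was counted as sense when its strand was that of the gene under the library protocol, and as antisense when it lay on the opposite strand. A pair that maps equally well to several places was not counted, nor was a pair lying on more than 1 gene of the same strand. Both exclusions can apply to a genome whose genes touch each other and have copies in the nucleus. The sequences below, all from the GENCODE M21 transcripts of GRCm38 and written 5′ to 3′ in the sense of the gene, show examples of such genes. How many pairs each exclusion removed was not tested. The first set holds genes with nuclear copies. mt-Nd3 (chrM:9459-9806, plus strand), a subunit of complex I, is shown over its first 60 bases beside the pseudogene Gm28438 (chr1:24612775-24613119, minus strand), with the only base that differs in capitals. mt-Co2 (chrM:7013-7696, plus strand), which carries the copper site that receives electrons from cytochrome c, is shown from base 313 to base 372 beside the pseudogene Gm28661 (chr1:24614885-24615565, minus strand), where no base differs.
mt-Nd3: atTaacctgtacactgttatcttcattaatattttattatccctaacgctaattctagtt
Gm28438: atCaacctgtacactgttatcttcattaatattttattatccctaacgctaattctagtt
mt-Co2: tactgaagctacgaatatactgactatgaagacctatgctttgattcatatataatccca
Gm28661: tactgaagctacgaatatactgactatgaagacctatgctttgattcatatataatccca

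The second set holds genes that overlap. The 3′ ends of mt-Nd5 (chrM:11742-13565, plus strand) and mt-Nd6 (chrM:13552-14070, minus strand) share 14 bases on opposite strands, in capitals, and so are the only 2 mRNA genes that face each other. mt-Atp8 (chrM:7766-7969, plus strand) ends in 43 bases that are also the beginning of mt-Atp6, again in capitals. mt-Ti, the isoleucine tRNA (chrM:3706-3774, plus strand), and mt-Tq, the glutamine tRNA (chrM:3772-3842, minus strand), overlap by 3 bases on opposite strands.
mt-Nd5: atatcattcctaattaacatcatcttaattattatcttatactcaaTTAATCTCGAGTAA
mt-Nd6: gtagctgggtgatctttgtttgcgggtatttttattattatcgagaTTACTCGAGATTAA
mt-Atp8: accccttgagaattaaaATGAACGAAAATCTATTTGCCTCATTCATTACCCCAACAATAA
mt-Ti: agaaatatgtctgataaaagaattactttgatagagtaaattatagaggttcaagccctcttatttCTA
mt-Tq: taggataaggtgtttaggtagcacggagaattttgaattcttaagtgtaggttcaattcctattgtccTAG

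The third set contrasts the 2 most counted tRNA genes with 2 that were hardly counted. The tryptophan tRNA mt-Tw (chrM:4950-5016, plus strand; capitals mark the 2 bases it shares with mt-Nd2) and the proline tRNA mt-Tp (chrM:15356-15422, minus strand) have a side with no neighbour on their own strand. The valine tRNA mt-Tv (chrM:1025-1093, plus strand) lies without a gap between the rRNA genes, and the leucine tRNA mt-Tl1 (chrM:2676-2750, plus strand) without a gap between mt-Rnr2 and mt-Nd1.
mt-Tw: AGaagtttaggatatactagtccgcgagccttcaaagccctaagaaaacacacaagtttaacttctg
mt-Tp: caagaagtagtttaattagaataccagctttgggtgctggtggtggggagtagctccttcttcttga
mt-Tv: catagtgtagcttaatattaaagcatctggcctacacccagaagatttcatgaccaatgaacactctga
mt-Tl1: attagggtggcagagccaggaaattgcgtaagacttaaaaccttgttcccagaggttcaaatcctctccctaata

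The targeted gene was read first as a check of the labels. Snhg11 stood at 551, 436 and 209 CPM (sense counts scaled to a common library total and TMM factor) in Control-ASO replicates 1 to 3. In the Snhg11-ASO replicates it had dropped to 139, 65.4 and 69.4 CPM. The groups did not overlap (exact permutation, two-sided, p = 0.1, which is the smallest value that 3 samples against 3 can give), and every library followed its label. Its fold change was -2.13 on the log2 scale (standard error 0.43), with an adjusted p of 0.395 in edgeR and of 6.2e-05 in DESeq2. Libraries held between 28951250 and 43997537 sense counts on genes, higher in every Snhg11-ASO sample than in every Control-ASO sample. Pairs that mapped to several places were 4.61% to 6.10% of all pairs. Summed markers of choroid plexus, a tissue that borders the hippocampus, ranged from 39.8 to 1974 CPM across samples, and those of astrocytes from 1148 to 3551 CPM, in an order that did not follow the groups. Markers of interneurons (401 to 440 CPM with Control-ASO, 326 to 371 CPM with Snhg11-ASO) and of blood (38.6 to 50.2 against 53.9 to 90.5 CPM) did not overlap between the groups, and their part in the differences below was not tested. All 8 choroid plexus and all 5 astrocyte markers were counted in every group, as were all markers of the hippocampal granule and pyramidal cells.

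Mitochondrial genes took a large part of all gene counts. Their share was 26.1%, 25.8% and 25.4% in Control-ASO replicates 1 to 3 and 23.7%, 25.9% and 28.2% in Snhg11-ASO replicates 1 to 3. The Control-ASO samples lay within the range of the Snhg11-ASO samples, and the difference of 0.198 percentage points did not exceed the spread (exact permutation test, p = 0.8, adjusted p = 0.862). Adjusted values of this kind were computed over 14 sample-level values. Counting error was small at this depth, with a 95% Wilson interval of at most ± 0.0160 percentage points, so the spread lay between samples. Intervals and limits cover counting error only.

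mt-Rnr2, the rRNA of the large mitochondrial ribosomal subunit (chrM:1094-2675, plus strand), held most of these counts. It drew 6418863, 7518052 and 7366477 counts in Control-ASO replicates 1 to 3 and 7778406, 9426294 and 11027727 counts in Snhg11-ASO replicates 1 to 3. In every sample that was between 85.1% and 89.0% of the mitochondrial counts, and between 20.2% and 25.1% of the counts of all genes. mt-Rnr1, the rRNA of the small subunit (chrM:70-1024, plus strand), drew 570653 to 871769 counts. Libraries of this kind are depleted of rRNA before sequencing, so these levels measure what was left after depletion and not the rRNA of the tissue.

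The ratio of mt-Rnr2 to mt-Rnr1 differed between samples but did not separate the groups. There were 9.33, 9.94 and 12.9 counts of mt-Rnr2 per count of mt-Rnr1 in Control-ASO replicates 1, 2 and 3, and 8.92, 11.1 and 13.97 in the Snhg11-ASO replicates of the same numbers. In both groups replicate 1 was the lowest and replicate 3 the highest. The difference between group means was 0.589 (exact permutation test, p = 0.7, adjusted p = 0.862).

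The remaining counts were almost all mRNA. Together the 13 protein-coding genes drew 439307 to 583090 counts per sample and the 22 tRNA genes 416 to 814. tRNAs thus made up 0.00495% to 0.00891% of the mitochondrial counts (p = 0.8 between groups by exact permutation). The 9 genes of the light strand drew 1671 to 2643 counts, or 0.0194% to 0.0283% of the mitochondrial counts, and mt-Nd6 held most of them. Their share did not differ beyond the spread (exact permutation test, p = 0.9, adjusted p = 0.9). Without the rRNAs, the light-strand share was 0.405%, 0.362% and 0.363% in Control-ASO replicates 1 to 3 and 0.533%, 0.361% and 0.458% in Snhg11-ASO replicates 1 to 3, with overlapping groups.

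**Figure D1:**
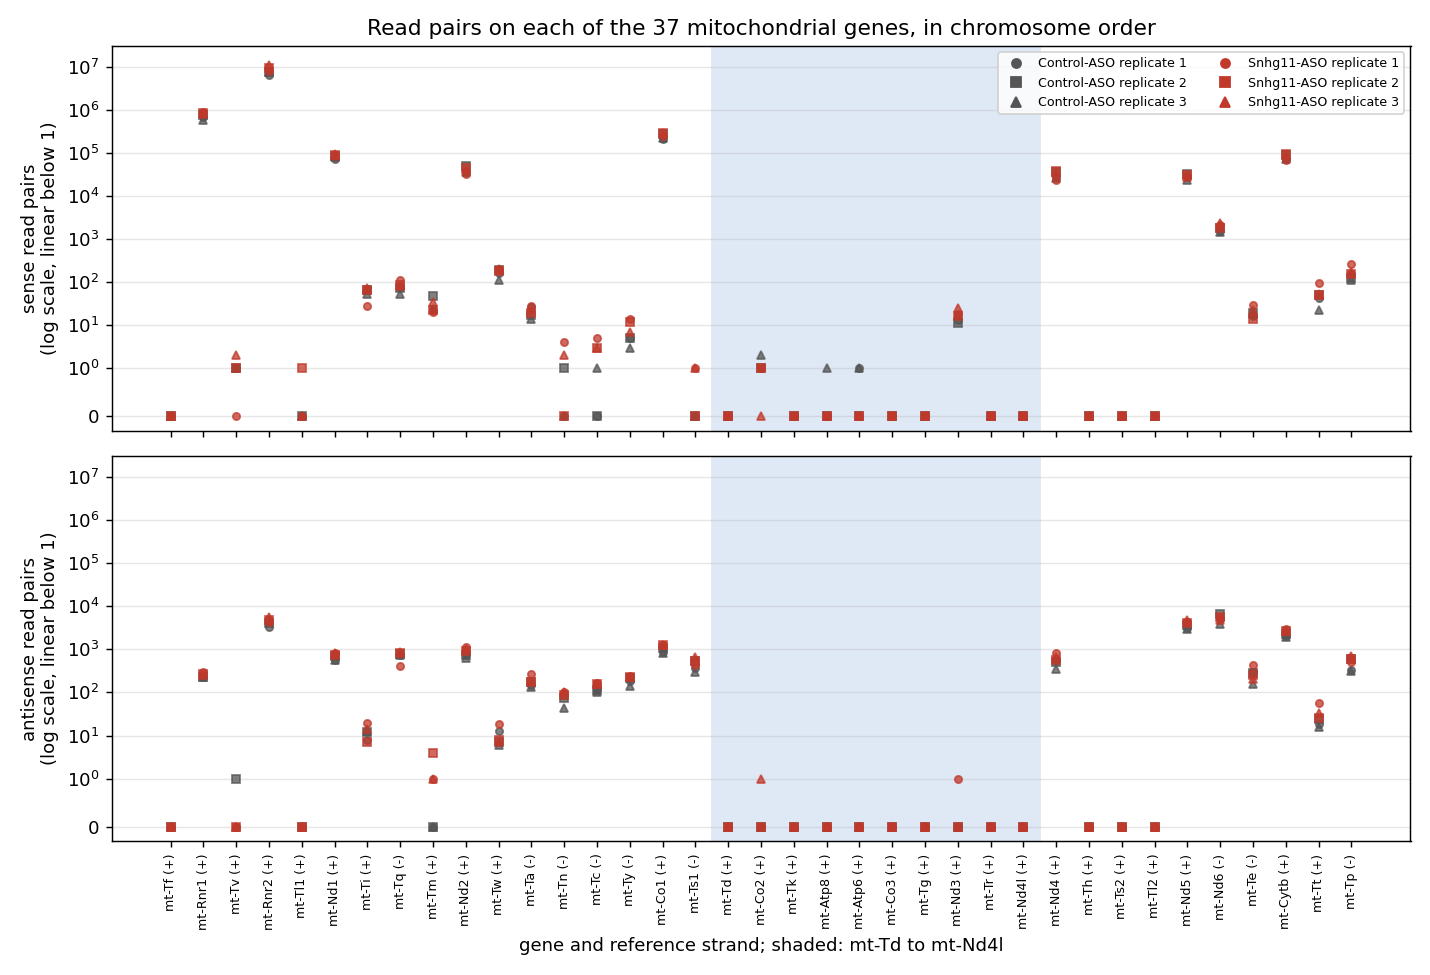
Sense (top) and antisense (bottom) read pairs of each of the 37 mitochondrial genes in chromosome order, on a log scale that is linear below 1, with a point for each of 3 Control-ASO (grey) and 3 Snhg11-ASO (red) samples. Sense counts run from above 6418863 for mt-Rnr2 down to 0 for 10 genes, and the shaded stretch from mt-Td to mt-Nd4l holds no gene above 25 sense counts.

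A long stretch of the chromosome was nearly empty. Of the 13 mRNA genes, 5 had at most 2 counts in every sample: mt-Co2 and mt-Co3 of complex IV, mt-Atp6 and mt-Atp8 of complex V, and mt-Nd4l of complex I. mt-Co3 and mt-Nd4l were at 0 in all 6 samples. mt-Nd3, which lies among them, had 13, 11 and 17 counts in Control-ASO replicates 1 to 3 and 18, 16 and 25 in Snhg11-ASO replicates 1 to 3. On both sides of the stretch counts returned, with 206180 to 290528 for mt-Co1 (chrM:5328-6872, plus strand), the catalytic subunit of complex IV, and 23858 to 37223 for mt-Nd4 (chrM:10167-11544, plus strand), a proton-pumping subunit of complex I. All these genes lie on the same heavy-strand transcript. A count of 0 allowed a share of at most 2.42e-05% to 3.98e-05% of the mitochondrial counts, depending on the sample, but only for pairs that map to a single place.

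With the exception of mt-Atp8, the empty mRNA genes were those whose sequence stands a second time among the annotated transcripts. Each gene was cut into all windows of 50 bases, the read length, and each window was searched in the transcripts of all other annotated genes. Copies were found for 100% of the windows of mt-Co2, 99.9% for mt-Co3, 99.5% for mt-Atp6, 98.8% for mt-Nd4l and 98.0% for mt-Nd3, and these were the only 5 members above 95%. For 27 members no window was found. The copies lie in a row on chromosome 1, in 7 annotated pseudogenes on the minus strand within chr1:24611535-24616197, a span of 4663 bases. Over the aligned bases the match was complete for mt-Co2 and Gm28661 (681 of 681 bases), mt-Atp6 and Gm10925 (678 of 678), mt-Co3 and Gm28437 (783 of 783), mt-Nd4l and Gm10222 (294 of 294), and the first part of mt-Nd4 and Gm28439 (876 of 876).

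Of the 5 genes with copies for over 95% of their windows, mt-Nd3 was the only one whose chromosome 1 copy differed. It matched at 344 of 345 bases, with the substitution T3C (the gene has the first base, the copy the last, and positions are counted from 1 at the 5′ end of the gene), which is the capital in the pair shown above. mt-Nd3 was also the only one of these 5 genes with more than 2 counts in every sample, and its copy Gm28438 had 0 to 3. At the end of the row, Gm29216 matched the last part of mt-Co1 at 486 of 492 bases. Together the 7 pseudogenes cover the mitochondrial stretch chrM:6381-11042 in the same order as the genes. Their spacing equals that of the genes in 5 of 6 intervals and differs by 1 base in the sixth, the interval between mt-Nd3 and mt-Nd4l that holds mt-Tr, the arginine tRNA. The 140 bases between the copies of mt-Co1 and mt-Co2 and the 233 bases between those of mt-Co2 and mt-Atp6, where mt-Ts1, mt-Td, mt-Tk and most of mt-Atp8 would lie, carry no annotated transcript on chromosome 1, so the window search could not test them. mt-Ts1, a serine tRNA gene (chrM:6870-6938), lies inside chrM:6381-11042. It had 301 to 654 antisense counts, whereas its neighbour mt-Td, also inside, had 0 on both strands in all samples.

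A pair that maps equally well to a gene and its copy is counted at neither place. Counts on the copies therefore cannot show how many such pairs there were. None of the 7 pseudogenes on chromosome 1 exceeded 13 counts, and among all 15 copies the highest count was 85, for Gm13340, a copy of mt-Co1 on chromosome 2 that matches it at 1508 of 1545 bases. For mt-Co1 51.1% of the windows were found elsewhere, and for mt-Nd4 62.2%. Pairs on these genes may therefore have gone uncounted, and their levels may be too low. How many pairs this concerns was not tested. mt-Nd2 had copies for 8.19% of its windows, mt-Nd5 for 7.61% and mt-Rnr2 for 1.04%. No statement on mt-Co2, mt-Co3, mt-Atp6, mt-Atp8 or mt-Nd4l can be made from these counts, in either group.

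**Figure D2:**
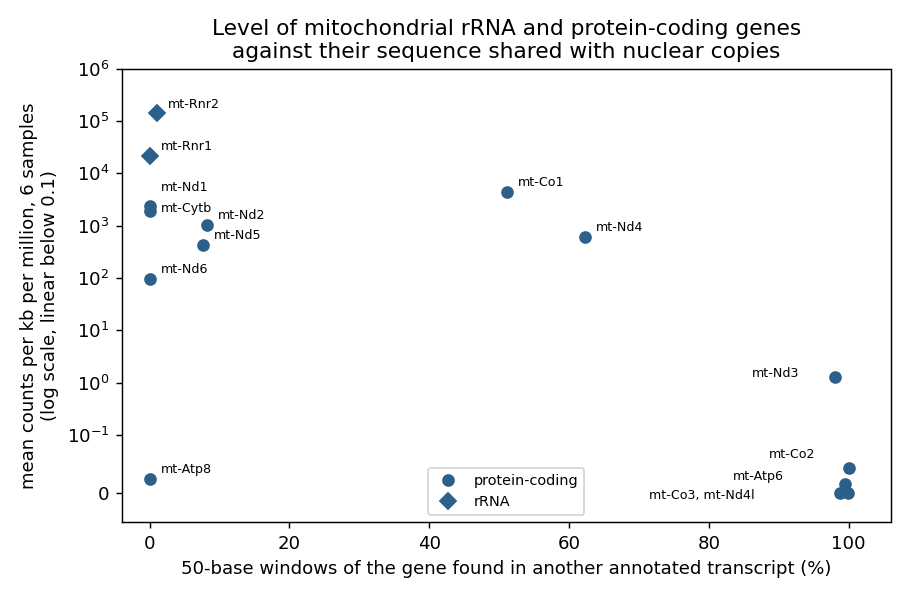
Mean sense CPM per kb of gene over the 6 samples (log scale, linear below 0.1) against the percentage of 50-base windows found in another annotated transcript, for the 13 protein-coding (circles) and 2 rRNA (diamonds) mitochondrial genes. The 5 genes with 98.0% to 100% of windows shared sit at the bottom right, and mt-Atp8, with no shared window in an annotated transcript, is the only low gene at the left.

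The tRNA genes were divided by their neighbours. Of the 22, 8 lie within 3 bases of a gene of the same strand on both sides, and none of these exceeded 2 counts in any sample. Of the other 14, 9 had a count in all 6 samples. Some tRNA genes also lie within chrM:6381-11042, the stretch covered by the copies on chromosome 1. These are mt-Tk, mt-Tg and mt-Tr of the 8, and mt-Ts1 and mt-Td of the 14. tRNA genes are 59 to 75 bases long. A pair that also reaches the next gene of the same strand is left out, while a pair that runs past the gene into sequence without such a gene is counted. The part of this rule in the tRNA counts was not tested. The counts were highest for mt-Tw, with 159, 190 and 112 in Control-ASO replicates 1 to 3 and 206, 180 and 205 in Snhg11-ASO replicates 1 to 3, and for mt-Tp, with 151, 124 and 113 against 268, 154 and 174. In total, 8 tRNA genes were at 0 in all samples.

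Compared per length, the order of the 9 genes with over 1000 counts in every sample was the same in all 6 samples. It ran from mt-Rnr2 and mt-Rnr1 through mt-Co1, mt-Nd1, mt-Cytb, mt-Nd2, mt-Nd4 and mt-Nd5 to mt-Nd6. In CPM per kb of gene, with all gene counts as the total, the Control-ASO mean of mt-Rnr2 was 139829 ± 1128 (SD, n = 3) and that of mt-Rnr1 22011 ± 3532. mt-Co1 stood at 4659 ± 361, mt-Nd1 of complex I (chrM:2751-3707, plus strand) at 2563 ± 15.8 and mt-Cytb, the only mitochondrial subunit of complex III (chrM:14145-15288, plus strand), at 2100 ± 174. mt-Nd2 (chrM:3914-4951, plus strand), mt-Nd4 and mt-Nd5, the proton-pumping subunits of complex I, followed at 1183, 672 and 477. The light-strand mRNA mt-Nd6, also of complex I, was the lowest at 95.4. The counts were divided by the full length of each gene, although large parts of mt-Co1 and mt-Nd4 have copies elsewhere. If pairs on those parts went uncounted, both levels would be higher over the countable length. The place of mt-Nd4 could then change, which was not tested. Over the 6 samples, the ranges of neighbours in this order overlapped for mt-Nd1 and mt-Cytb and for mt-Nd4 and mt-Nd5, and for no other pair.

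mt-Co1 alone held nearly all of complex IV that could be counted. It was 46.9%, 47.8% and 48.1% of the protein-coding mitochondrial counts in Control-ASO replicates 1 to 3 and 50.6%, 48.6% and 50.5% in Snhg11-ASO replicates 1 to 3. All Snhg11-ASO samples lay above all Control-ASO samples, by 2.30 percentage points on average (exact permutation test, p = 0.1, adjusted p = 0.35). This share was among the values added after the data were seen. Half-widths of the Wilson intervals were at most 0.148 percentage points.

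Counts on the opposite strand differed widely between the heavy-strand genes. Antisense counts were 0.0304% to 0.0410% of the strand-resolved counts of mt-Rnr1 and 0.0513% to 0.0656% of those of mt-Rnr2. In mt-Co1 they were 0.373% to 0.499%, in mt-Nd1 0.711% to 1.001%, and in mt-Nd2, mt-Nd4 and mt-Cytb 1.31% to 4.04%. mt-Nd5 stood above these in every sample, at 10.3%, 9.99% and 11.5% in Control-ASO replicates 1 to 3 and 13.05%, 11.8% and 15.03% in Snhg11-ASO replicates 1 to 3. As a background, 2454 nuclear genes with at least 1000 counts and no annotated gene on the opposite strand had a median antisense share of 0.111% to 0.144% in each sample, and their 95th percentile was 1.16% to 2.01%. The rRNA genes thus lay below the nuclear median and mt-Nd5 far above the 95th percentile. In every sample mt-Nd2 and mt-Cytb also lay above the 95th percentile of that sample. Unlike these nuclear genes, mt-Nd5 has an annotated gene, mt-Nd6, opposite its 3′ end.

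The light-strand genes showed the reverse picture. In mt-Nd6 the antisense counts, which come from the strand that carries mt-Nd5 and mt-Cytb, made up 77.4%, 78.7% and 73.0% in Control-ASO replicates 1 to 3 and 71.4%, 75.9% and 67.8% in Snhg11-ASO replicates 1 to 3. All 8 light-strand tRNA genes had more antisense than sense counts in every sample, with 1933 to 3104 antisense counts in sum. None of the 14 heavy-strand tRNA genes did, and their antisense counts summed to 35 to 96. For mt-Nd6, most strand-resolved counts were thus those of the heavy-strand transcript. Counting without strand did not add these pairs to the tRNA genes. The Control-ASO mean of the tRNA share of mitochondrial counts was 0.00500% with counts of both strands and 0.00642% with sense counts.

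**Figure D3:**
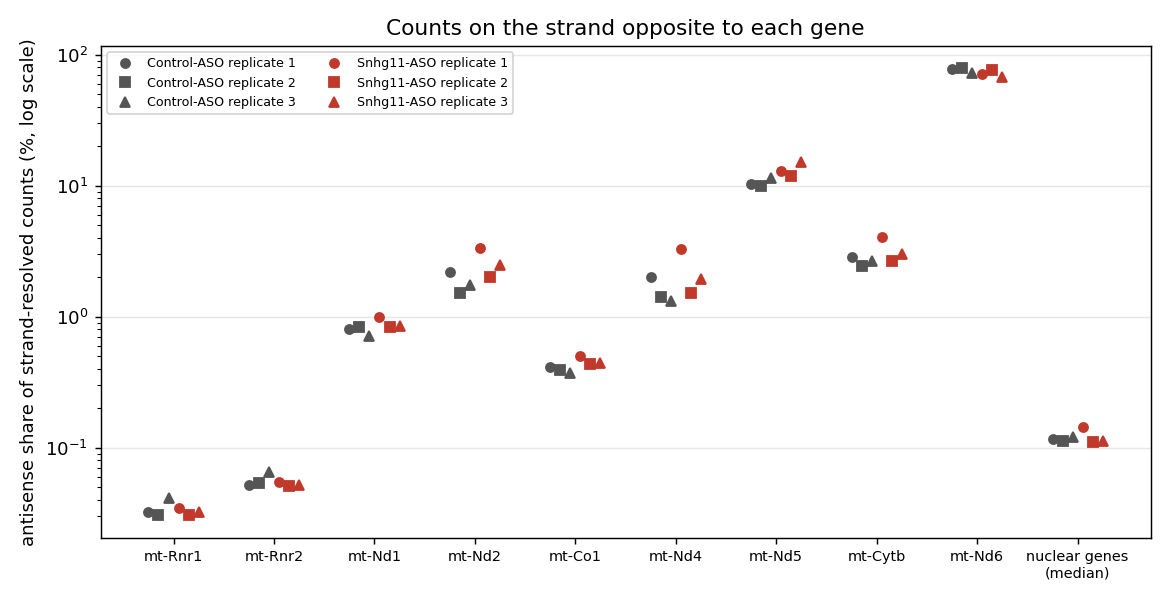
Antisense share (%, log scale) of the strand-resolved counts of the 9 mitochondrial genes with over 1000 sense counts in every sample, and the median of 2454 nuclear genes, with a point per sample. mt-Nd5 lies at 9.99% to 15.03% and mt-Nd6 at 67.8% to 78.7%, whereas mt-Rnr1 and mt-Rnr2 lie below the nuclear median.

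The antisense share of mt-Nd5 did not overlap between the groups. Its mean was 10.6 ± 0.787% (SD, n = 3) with Control-ASO and 13.3 ± 1.62% with Snhg11-ASO, a difference of 2.72 percentage points, and it was higher with Snhg11-ASO in each of the 3 pairs of samples with the same number, by 1.83 to 3.56 points (exact permutation test over the groups, p = 0.1, adjusted p = 0.35). The Wilson intervals of single samples were at most ± 0.389 points wide. This share was among the values added after the data were seen. It also depends on the sense counts of mt-Nd5, whose log2 fold change was -0.30 in edgeR. Whether the level of antisense RNA itself differed was not tested. Over all heavy-strand mRNA genes the antisense share was 1.79%, 1.57% and 1.58% with Control-ASO and 2.28%, 1.70% and 1.94% with Snhg11-ASO, with overlapping groups (p = 0.2, exact permutation) and higher values with Snhg11-ASO in all 3 pairs, by 0.134 to 0.490 points. For mt-Nd6 the groups overlapped as well, with a difference of -4.65 points (p = 0.2, exact permutation) and lower values with Snhg11-ASO in all 3 pairs. With 3 pairs these signs were not tested, and no label says that a shared number marks a pair. Antisense counts of the rRNA genes together were 0.0496% to 0.0638%, again with overlap. The nuclear background beside it was 0.117%, 0.112% and 0.120% with Control-ASO and 0.144%, 0.111% and 0.112% with Snhg11-ASO.

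Within the mitochondrial counts, the balance between rRNA and mRNA separated the groups by a small amount. The mRNA share was 5.82%, 6.33% and 5.48% in Control-ASO replicates 1 to 3 and 5.31%, 5.37% and 4.65% in Snhg11-ASO replicates 1 to 3. Every Snhg11-ASO sample lay below every Control-ASO sample, by 0.769 percentage points on average, but the lowest Control-ASO and the highest Snhg11-ASO sample were close (exact permutation test, p = 0.1, the smallest possible, adjusted p = 0.35). The rRNA share mirrored it, at 94.2%, 93.7% and 94.5% against 94.7%, 94.6% and 95.3%, and is no separate result, since both shares sum to nearly 100%. Relative to the counts of all genes, the mRNA share was 1.52%, 1.63% and 1.39% against 1.26%, 1.39% and 1.31%, and here the groups overlapped (p = 0.2, exact permutation), though the share was lower with Snhg11-ASO in all 3 pairs of samples with the same number, with differences of -0.260 to -0.0816 percentage points. mt-Rnr2, the bulk of the denominator, is a remainder after depletion, and the part of depletion in this difference was not tested.

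**Figure D4:**
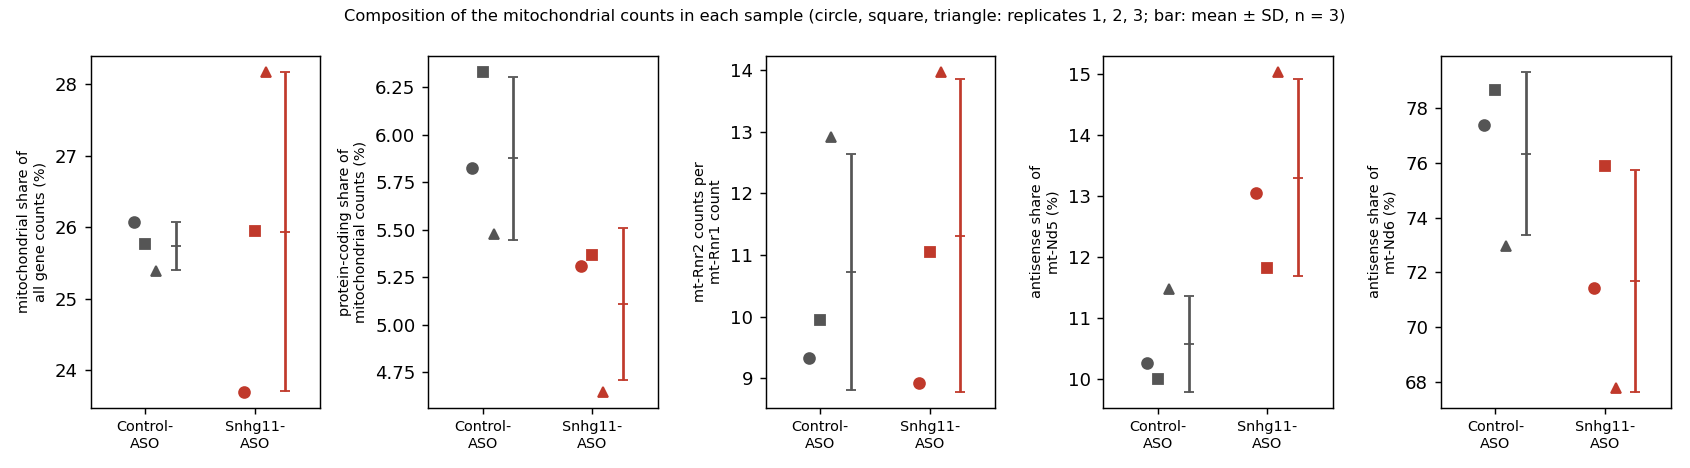
Sample-level values in 3 Control-ASO (grey) and 3 Snhg11-ASO (red) samples, with mean ± SD (n = 3): the mitochondrial share of gene counts (%), the protein-coding share of mitochondrial counts (%), the ratio of mt-Rnr2 to mt-Rnr1 counts, and the antisense shares (%) of mt-Nd5 and mt-Nd6; no axis starts at 0. The groups do not overlap in the protein-coding share and the antisense share of mt-Nd5, and overlap in the other panels. The ratio and the antisense share of mt-Nd5 were added after the data were seen.

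Gene by gene, no mitochondrial transcript passed the threshold. Of the 37 members, 18 passed the filter on low counts, namely 8 mRNAs, both rRNAs and 8 tRNAs. The quasi-likelihood test of edgeR, adjusted by Benjamini-Hochberg over the 19969 genes that were tested, called 0 of the 18 at an adjusted p of 0.05, against 0% of all genes tested. At an unadjusted p under 0.05 it found 1 of 18, mt-Nd2, against 8.11% of all genes. DESeq2 called 0 of the 18 (with no adjusted p for mt-Nd3), against 1.29% of all genes, and had 2, mt-Nd1 and mt-Nd2, at an unadjusted p under 0.05, against 9.17% of all genes. In CPM the groups did not overlap for 1 of 18, mt-Nd1, against 15.4% of all genes. The smallest adjusted p of a member was 0.610 in edgeR.

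The abundant heavy-strand mRNAs were nevertheless all lower with Snhg11-ASO in the fitted values, none past the threshold. These 6, mt-Nd1, mt-Nd2, mt-Co1, mt-Nd4, mt-Nd5 and mt-Cytb, had log2 fold changes of -0.11 to -0.37 with a median of -0.26, beside a median of 0.01 over all genes tested. They stem from 1 precursor and are not independent of each other. In each Snhg11-ASO sample all 6 lay below the Control-ASO mean, but so did all 6 in Control-ASO replicate 3. The median deviation of the 6 from the Control-ASO mean on the log2 scale was -0.29, -0.13 and -0.25 in Snhg11-ASO replicates 1 to 3 and -0.19 in Control-ASO replicate 3, against 0.17 in Control-ASO replicate 2. Without Control-ASO replicate 2, the highest of all samples, the median fold change was -0.16 on the log2 scale, and without Snhg11-ASO replicate 1 it was also -0.16. Without Control-ASO replicate 3 it was -0.35.

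mt-Nd1 was the most even of them within groups. It stood at 2406, 2518 and 2399 CPM with Control-ASO, against 2164, 2159 and 2184 CPM with Snhg11-ASO, so that the groups did not overlap. On the log2 scale this was a change of -0.17 with a standard error of 0.10 (unadjusted p = 0.137, adjusted p = 0.704 by edgeR), and DESeq2 gave an adjusted p of 0.345.

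mt-Nd2 had the lowest fold change of these 6 mRNAs. It stood at 1184, 1448 and 1040 CPM against 863, 1071 and 899 CPM, with Control-ASO replicate 3 below Snhg11-ASO replicate 2. On the log2 scale this was a change of -0.37 with a standard error of 0.16 (unadjusted p = 0.0482, adjusted p = 0.610 by edgeR), and of -0.24 without Control-ASO replicate 2. With the replicate number as a block in edgeR, mt-Nd2 had an unadjusted p of 0.0124 and mt-Nd5 of 0.0349, so the count of members under 0.05 went from 1 to 2 of 18, against 8.59% of all genes in that fit, and their adjusted p in edgeR was 0.490 and 0.559.

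Of the other complex I mRNAs, mt-Nd5 stood at 937, 976 and 687 CPM in Control-ASO and 765, 716 and 630 CPM in Snhg11-ASO samples (log2 fold change -0.30, adjusted p = 0.680 by edgeR). mt-Nd4 stood at 936, 1060 and 775 against 626, 891 and 778 CPM (log2 fold change -0.27, and -0.15 without Snhg11-ASO replicate 1). The groups overlapped for both. mt-Nd3, at 0.327 to 0.573 CPM, had a log2 fold change of 0.17 that rests on 11 to 25 counts.

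mt-Co1 stood at 7009, 7942 and 6563 CPM against 6435, 6781 and 6654 CPM, a log2 fold change of -0.11 (standard error 0.13), which was -0.04 without Control-ASO replicate 2 and -0.18 without Control-ASO replicate 3. mt-Cytb stood at 2409, 2624 and 2145 against 1804, 2291 and 1989 CPM, a log2 fold change of -0.24 (standard error 0.14). Their groups overlapped, and the adjusted p was 0.843 and 0.700 by edgeR.

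The light-strand mRNA and the rRNAs had fold changes near 0. mt-Nd6 stood at 51.2, 53.1 and 43.6 CPM with Control-ASO and 55.7, 43.6 and 53.3 CPM with Snhg11-ASO, a log2 fold change of 0.04 (standard error 0.13), whose sign turned with counts of both strands, where it was -0.27. For mt-Rnr1 the log2 fold change was -0.03 (standard error 0.19) and for mt-Rnr2 0.05 (standard error 0.23). Whether mt-Nd6 and the heavy-strand mRNAs differed in their response was not tested.

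Among the tRNAs, Snhg11-ASO replicate 1 stood apart. mt-Tt, the threonine tRNA (chrM:15289-15355, plus strand), had 42, 51 and 23 counts in Control-ASO replicates 1 to 3 and 96, 51 and 53 in Snhg11-ASO replicates 1 to 3. mt-Tp and mt-Tq were also highest in Snhg11-ASO replicate 1, with 268 and 114 counts. mt-Ti was lowest there, with 28 counts against 53 to 73 in all other samples. The antisense counts of mt-Tq, which arise on the strand that carries mt-Ti, were lowest in the same sample, at 408 against 736 to 863 in the others. The same sample had the lowest mt-Nd2, mt-Nd4 and mt-Cytb in CPM and the lowest mitochondrial share, and its microglia markers summed to 131 CPM against 246 to 446 CPM elsewhere. The part of these in the tRNA values was not tested. Log2 fold changes of the 5 most counted tRNAs ranged from -0.57 for mt-Ti to 0.45 for mt-Tt, with unadjusted p from 0.158 to 0.991 in edgeR. Without Snhg11-ASO replicate 1, those of mt-Tp and mt-Tq turned to -0.08 and -0.13 (log2), that of mt-Tt was 0.01 and that of mt-Ti -0.29. Without Control-ASO replicate 3, that of mt-Tt was 0.15.

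**Figure D5:**
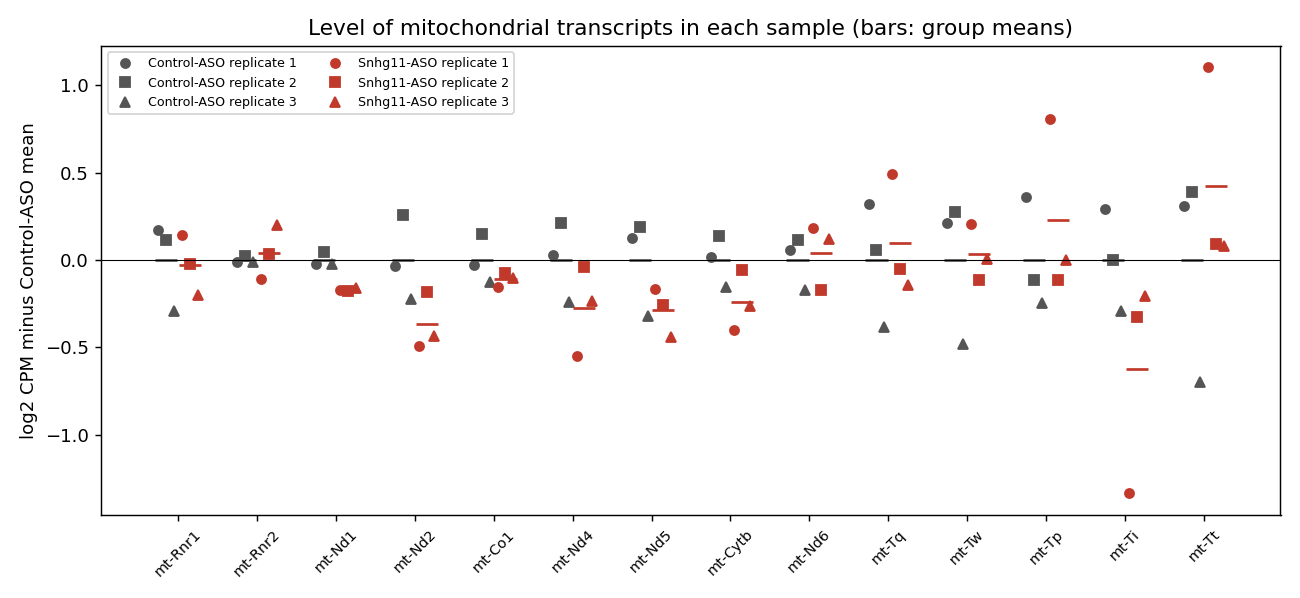
Log2 CPM of 14 mitochondrial genes in each sample minus the mean of the Control-ASO samples, with bars at the group means. The 6 abundant heavy-strand mRNAs lie below 0 in all Snhg11-ASO samples and in Control-ASO replicate 3, and Snhg11-ASO replicate 1 holds the extreme values of mt-Ti, mt-Tp and mt-Tt.

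The nuclear genes that make, process and translate mitochondrial RNA were read as lists of transcription, replication, RNA processing, stability, modification, translation, tRNA charging and mitochondrial ribosome genes. Of 170 tested, 75 were higher and 95 lower in fitted value, with a median log2 fold change of -0.02, and edgeR called 0. At an unadjusted p under 0.05 in edgeR there were 3, 1 higher and 2 lower, against 8.11% of all genes. The groups did not overlap for 5 higher and 10 lower genes of these lists, against 15.4% of all genes. DESeq2 called 2, both lower, against 1.29% of all genes. Top1mt, the mitochondrial topoisomerase that relaxes the supercoils of mitochondrial DNA, stood at 11.3, 10.7 and 8.88 CPM with Control-ASO and 4.17, 6.84 and 5.86 CPM with Snhg11-ASO (log2 fold change -0.87, standard error 0.22, adjusted p = 0.483 in edgeR and 0.0329 in DESeq2). Gfm2, which recycles mitochondrial ribosomes after translation, stood at 37.4, 33.5 and 34.0 against 25.0, 28.04 and 24.5 CPM (log2 fold change -0.43, standard error 0.11, adjusted p = 0.465 in edgeR and 0.0375 in DESeq2). The groups overlapped for neither gene.

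None of the 9 genes of transcription had an unadjusted p under 0.05. The smallest belonged to Mterf2, a factor of the mitochondrial termination family (log2 fold change -0.19). Among 14 genes of RNA stability, Pnpt1, the polynucleotide phosphorylase of the degradosome that removes light-strand and antisense RNA, had the smallest p. It stood at 29.2, 31.4 and 33.3 CPM against 44.8, 40.2 and 35.5 CPM, so the groups did not overlap, with a log2 fold change of 0.36 (standard error 0.12, unadjusted p = 0.0197, adjusted p = 0.550 in edgeR). In the other lists the smallest p belonged to Ptcd1 (RNA processing, log2 fold change 0.12), Mettl17 (modification, -0.22), Ears2 (the glutamyl-tRNA synthetase, -0.45) and Mrps6 (a ribosomal protein, 0.80), none past the threshold. Mrps6 stood at 8.50, 6.36 and 5.85 CPM with Control-ASO. With Snhg11-ASO it stood at 21.1, 6.32 and 8.77 CPM, so the groups overlapped and replicate 1 was far above the others (standard error 0.44). The nuclear-encoded subunits of the respiratory complexes, the partners of the mitochondrial mRNAs, were lower in fitted value for 67 of 72, beside 9653 of 19969 over all genes tested. Their median log2 fold change was -0.13, and edgeR called 0.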

How the data were processed

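Bulk RNA-seq of the dorsal hippocampus (TruSeq Stranded Total RNA, paired reads of 50 bases) was analysed in 3 Control-ASO and 3 Snhg11-ASO samples, grouped and numbered by their labels. The authors aligned the reads to GRCm38 (mm10) with STAR 2.5.2a and deposited raw counts per gene for each strand setting, without normalization or pooling. These tables have the form that STAR writes, although Rsubread is the counter given in the study's methods. Sense counts are those of the reverse setting and antisense counts those of the forward setting. Summary lines that name no gene were left out of library sizes. They include pairs on no gene (33.5% to 42.2% of all pairs) and pairs on several genes (0.600% to 0.761%). Gene names came from GENCODE M21, which matched 55141 of 55401 identifiers.

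Shares were computed per sample from the counts and compared with two-sided exact permutation tests, adjusted by Benjamini-Hochberg over 14 values, 7 of which were added after the data were seen. The added values were the mt-Rnr2 to mt-Rnr1 ratio, the mRNA share of all gene counts, and the light-strand and tRNA shares without the rRNAs. Also added were the antisense shares of mt-Nd5 and of the rRNA genes, and the mt-Co1 share of the mRNA counts. Single genes were tested with edgeR 4.0.16 (R 4.3.3; filterByExpr with minimum count 10, TMM, quasi-likelihood test, Benjamini-Hochberg over 19969 genes), and with DESeq2 1.42.0 as an alternative. Standard errors were obtained as the absolute log2 fold change over the root of the F statistic. CPM values are scaled by TMM over the genes tested, and log2 CPM used a prior count of 2. The fit was tested on simulated counts. Named were all mitochondrial mRNAs and rRNAs, the 5 tRNAs with the highest mean CPM and any with an unadjusted p under 0.05 or groups that did not overlap, Snhg11, and of each list of mitochondrial gene expression machinery the gene with the smallest p and any past the threshold. Top1mt and Gfm2 come under this rule, other tRNAs were named for their position. The members and lists were chosen with earlier results of these data known. DESeq2 gave no adjusted p for 2003 genes.

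Replicates 1, 2 and 3 exist in both groups. Deviations from the group mean over all genes correlated between samples sharing a number, at 0.297, 0.179 and 0.103. Control-ASO replicate 2 also correlated with Snhg11-ASO replicate 3, at 0.188. Each same-numbered value exceeded 0.1. The main tests did not use the number. It served as a block in an alternative fit and for the differences given by pairs. The value of 0.188 was above the same-numbered values of 0.179 and 0.103, so this check does not settle the pairing. Over the 18 members tested, the same-numbered correlations were 0.438, 0.181 and 0.481. No other check was made, and no label says what a number marks. The study's methods describe 3 injected mice per group, and the labels do not tie samples to mice. The study left out 1 Snhg11-ASO sample that it does not name. All were kept here, and each was left out in turn.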

Additional observations from a re-analysis of the deposited data

How the results depend on the processing

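The 6 abundant heavy-strand mRNAs had negative fold changes in all fits tried, and no mitochondrial gene was called in any. With the replicate number as a block, 2 mitochondrial genes had an unadjusted p under 0.05. No other call changed under the block. That count was also 2 with DESeq2 and with no filter on low counts, 0 with library sizes from nuclear genes or counts of both strands (11 members tested), and 0 to 2 when samples were left out in turn. Over all genes, DESeq2 called 258 and leaving out samples gave 0 to 2 (2 without Snhg11-ASO replicate 1), with 900 to 2011 at an unadjusted p under 0.05 (900 without Control-ASO replicate 1, 958 without Control-ASO replicate 3). Snhg11 had a log2 fold change of -2.12 in DESeq2, which called it, and DESeq2 called 2 genes of the machinery lists. The difference in the light-strand share was 0.0121 percentage points with counts summed per kb and 0.0577 with mt-Nd6 set over the 13 protein-coding genes. Log2 fold changes near 0 turned sign. That of mt-Nd6 was -0.27 with counts of both strands, and that of mt-Tw was -0.0191 with upper-quartile factors, -0.0076 with no filter and -0.0075 scaled to the mitochondrial total. With samples left out in turn, the log2 fold change ranged from -0.172 to 0.0466 for mt-Rnr1, -0.0361 to 0.120 for mt-Rnr2, -0.0421 to 0.144 for mt-Nd6, -0.21 to 0.14 for mt-Tw, -0.0775 to 0.464 for mt-Tp and -0.13 to 0.27 for mt-Tq. The mRNA share of mitochondrial counts kept its direction, with differences from -0.969 to -0.539 percentage points, as did the antisense share of mt-Nd5 (1.86 to 3.46). The mitochondrial share did not (-0.918 to 1.32), nor did the ratio of mt-Rnr2 to mt-Rnr1 (-0.738 to 1.79). The causes were not tested.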
